A study of Mus musculus with 82 samples.

Results

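The genes described here are 39 mouse genes of glucose breakdown, lactate exchange and the response to low oxygen. The deposited count table holds 48795 genes. The 39 were taken by name and not by a measured value, although earlier results of these data were known when they were chosen. All 39 symbols matched a gene of the table. They fall into 17 glycolytic enzymes, 5 regulators of glycolytic flux (Pfkfb2, Pfkfb3, Pdk1, Pdk2 and Pdha1), 3 glycogen enzymes (Pygb, Pygm and Gys1), 5 transporters of glucose or lactate (Slc2a1, Slc2a3, Slc16a1, Slc16a3 and Slc16a7), 3 regulators of hypoxia-inducible factor (Hif1a, Epas1 and Egln1) and 6 targets of that factor (Vegfa, Adm, Bnip3, Egln3, Ddit4 and Ankrd37). The study profiled laser-captured mouse cortex and white matter by RNA sequencing, from uninjured brains and after a cortical or a white matter stroke. Ribosome-associated RNA was pulled down by immunoprecipitation (IP), a step the study's title describes as enriching astrocytes, and in some groups the input to the pull-down was sequenced too. Each region has 5 uninjured IP libraries, 5 uninjured input libraries and 5 IP libraries for each of stroke zones 1 to 5, along with 3 IP and 3 input libraries labelled as zones 1 to 3 together, giving 82 libraries in 18 groups. The uninjured mice also carry the label sham, and the same 5 uninjured IP libraries of a region serve as controls for all of its zones. The sources used here do not give strain, age, sex, the allele or promoter behind the ribosome pull-down, the interval after stroke or the distance each zone covers. Libraries are not tied to animals by the labels, and p-values therefore reflect library-to-library spread, part of which may be technical.

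Glycolysis splits glucose into pyruvate, which mitochondria oxidise or lactate dehydrogenase turns into lactate. Brain astrocytes store glycogen and are known for a high glycolytic rate, and lactate passes between glia and neurons through the monocarboxylate transporters encoded by the Slc16a genes. When oxygen falls, prolyl hydroxylases (Egln1 and Egln3) stop marking the HIF alpha subunits (Hif1a, Epas1) for breakdown, and HIF then raises transcription of glycolytic enzymes, glucose transporters and Vegfa by binding short elements in their promoters and enhancers. HIF activity is set mainly by protein stability, which messenger RNA levels do not measure.

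Libraries held 2518604 to 28245109 counts, of which 67.28% to 94.34% fell on 6 ribosomal or repeat-derived genes. The levels below are CPM (counts scaled to a library total of 1000000) over the remaining 389889 to 5708700 counts of a library. Shallow libraries, with fewer than 1000000 such counts or fewer than 10000 genes with a count, numbered 5. They are replicate 1 of cortex zone 1, replicate 1 of white matter zone 3, replicate 3 of white matter zone 5, and both replicates 1 and 5 of white matter zone 1. The summed CPM of 12 astrocyte markers was 3751 to 7356 in uninjured cortex IP against 1462 to 3047 in input, and 4910 to 7232 in uninjured white matter IP against 4270 to 5298 in input. Neuron markers were present throughout, with a summed CPM of 11639 to 17951 over 12 genes in uninjured cortex IP and 756 to 2035 in white matter IP. Markers of both cell types were thus read in IP. As these are bulk samples, fewer cells of a type and less RNA per cell cannot be told apart. Mitochondrial messenger RNA took 10.6% to 21.0% of the remaining counts in uninjured cortex IP and 4.91% to 9.75% in cortex zone 1.

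Levels were first compared between the members after dividing each CPM by the summed exon length of the gene (CPM per kb, from the GENCODE annotation of GRCm38). In uninjured cortex IP the highest members were the aldolases Aldoa, at 136 ± 44.7 CPM per kb (SD, n = 5), and Aldoc, at 127 ± 40.2, then the lactate dehydrogenase subunit Ldhb at 118.5 ± 34.2, which do not differ beyond their spread. Eno2, the neuronal enolase, Pkm, pyruvate kinase, and Tpi1, triosephosphate isomerase, followed at 88.9 ± 13.5, 74.0 ± 9.84 and 69.4 ± 23.0 CPM per kb. At the bottom stood Slc16a3, the monocarboxylate transporter MCT4, and Hk2, hexokinase 2, both at 0.207 CPM per kb. In uninjured white matter IP the order changed: Aldoc came first at 90.5 ± 43.4 CPM per kb, followed by Pdk2, a kinase that inhibits pyruvate dehydrogenase, at 48.1 ± 19.3, and the HIF subunit Epas1 at 44.6 ± 16.4. Hk1, the main brain hexokinase, and Ldha, the lactate dehydrogenase subunit linked to lactate formation, both stood at 2.38 CPM per kb there, and Adm, the vasodilator adrenomedullin, had no count in any of the 5 libraries. Gapdh was at only 5.83 ± 1.85 CPM per kb in cortex. Of the Gapdh transcript 50-mers, 25.1% occur in another annotated gene, among them 209 pseudogenes, and the same holds for 53.9% of Pgk1, 47.2% of Bnip3, 36.2% of Pgam1, 26.0% of Eno1, 25.8% of Pkm and 21.0% of Ldhb 50-mers. The sources used here do not say how such reads were counted, so the levels of these genes are uncertain, while no Hk2 50-mer is shared.

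The promoters of the 4 members with the lowest adjusted p in any zone comparison are shown here, since HIF is known to bind the core sequences ACGTG and GCGTG. Each window runs from 250 bases before to 50 bases after the annotated start, 5′ to 3′ on the strand of the gene, from RefSeq on GRCm38.p6. Capitals mark ACGTG or GCGTG on either strand, and a capital CACGTG holds ACGTG on both strands, overlapping.
Hk2, minus strand, chr6:82774405-82774704: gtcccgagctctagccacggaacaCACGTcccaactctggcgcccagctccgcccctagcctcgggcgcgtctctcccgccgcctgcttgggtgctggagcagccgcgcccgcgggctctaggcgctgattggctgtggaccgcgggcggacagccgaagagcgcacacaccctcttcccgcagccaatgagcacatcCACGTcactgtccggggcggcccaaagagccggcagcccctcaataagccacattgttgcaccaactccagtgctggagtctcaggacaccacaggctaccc
Pfkfb3, first window, minus strand, chr2:11553880-11554179: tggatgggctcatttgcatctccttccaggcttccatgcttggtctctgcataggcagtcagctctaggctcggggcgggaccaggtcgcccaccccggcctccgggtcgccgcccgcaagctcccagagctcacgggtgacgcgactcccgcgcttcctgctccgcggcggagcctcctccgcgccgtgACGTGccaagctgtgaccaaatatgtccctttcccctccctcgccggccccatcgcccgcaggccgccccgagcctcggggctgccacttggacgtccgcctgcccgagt
Pfkfb3, second window, minus strand, chr2:11502041-11502340: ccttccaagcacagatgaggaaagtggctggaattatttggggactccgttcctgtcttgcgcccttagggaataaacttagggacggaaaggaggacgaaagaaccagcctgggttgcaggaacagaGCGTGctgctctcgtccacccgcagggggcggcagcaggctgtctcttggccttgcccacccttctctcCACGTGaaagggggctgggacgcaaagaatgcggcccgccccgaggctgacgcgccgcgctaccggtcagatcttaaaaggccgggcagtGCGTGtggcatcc
Aldoc, first window, plus strand, chr11:78322823-78323122: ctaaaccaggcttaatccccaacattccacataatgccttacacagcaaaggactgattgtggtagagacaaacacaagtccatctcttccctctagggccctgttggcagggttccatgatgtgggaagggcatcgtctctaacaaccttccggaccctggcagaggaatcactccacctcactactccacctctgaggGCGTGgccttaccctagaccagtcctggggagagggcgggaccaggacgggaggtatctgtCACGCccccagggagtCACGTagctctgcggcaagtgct
Aldoc, second window, plus strand, chr11:78323948-78324247: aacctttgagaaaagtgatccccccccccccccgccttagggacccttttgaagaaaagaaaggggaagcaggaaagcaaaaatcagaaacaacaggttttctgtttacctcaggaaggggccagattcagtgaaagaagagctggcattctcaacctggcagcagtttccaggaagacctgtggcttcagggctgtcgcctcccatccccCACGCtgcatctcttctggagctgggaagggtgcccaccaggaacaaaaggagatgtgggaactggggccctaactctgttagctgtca
Hif1a, plus strand, chr12:73907617-73907916: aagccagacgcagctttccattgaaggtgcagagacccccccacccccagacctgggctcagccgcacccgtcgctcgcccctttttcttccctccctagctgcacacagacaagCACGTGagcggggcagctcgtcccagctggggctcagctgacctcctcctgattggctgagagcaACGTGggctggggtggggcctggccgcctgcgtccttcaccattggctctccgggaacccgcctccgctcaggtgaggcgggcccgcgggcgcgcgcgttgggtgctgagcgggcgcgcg
The Hk2 window holds the motif at 2 positions, the Pfkfb3 windows at 1 and 4, the Aldoc windows at 3 and 1, and the Hif1a window at 3. Across the members, 36 have a window, and 42 of their 53 windows (79.2%) hold either motif, against 43.8% of all 32851 mouse windows of the same length. Member windows are also richer in G and C, with a median of 61.3% against 52.7% of all windows. A match is a description of the sequence, and occupancy by a factor was not measured. Slc2a3, Slc16a7 and Epas1 have no window in the table.

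In cortex zone 1, the mean of the glycolytic class stood near its uninjured level. The test counted 36 of the 39 members, and 3 of them (8.33%) passed the adjusted p threshold of 0.05, against 5.3% of the 12526 genes tested (4.81% higher and 0.495% lower). The share of members called was thus near that of all genes, and limma voom called none. The members called were the glycolytic enzymes Hk2, higher, and Aldoc, lower, and the flux regulator Pfkfb3, higher. The median log2 fold change was 0.26 over the tested members and 0.07 over all genes tested, and 21 of the 36 members were above 0.

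Hk2 encodes hexokinase 2, which traps glucose in the cell as glucose 6-phosphate; it lies at chr6:82725025-82774454 on the minus strand of GRCm38 and is known in mouse brain from microglia. In the 5 uninjured cortex IP libraries its level was 1.00, 1.89, 2.53, 0.246 and 0.497 CPM, resting on 9 counts in all. In zone 1 it was 46.2, 23.3, 6.32, 5.94 and 9.79 CPM, with the first value from the shallow library. Every zone 1 library lay above every uninjured library. Zone 2 libraries stood at 8.89, 10.6, 5.51, 10.2 and 7.0 CPM and did not overlap the uninjured ones either. Further out the groups overlapped, with 0.712 to 7.75 CPM in zone 3, 0.588 to 3.58 in zone 4 and 0 to 4.41 in zone 5, and counts in these zones were too low for the test. By edgeR's quasi-likelihood test Hk2 rose in zone 1 by a log2 fold change of 3.79 ± 0.88 (SE, adjusted p = 0.0122) and in zone 2 by 2.95 ± 0.65 (SE, adjusted p = 0.00433). Without uninjured replicate 5 the zone 1 adjusted p was 0.0577, and limma voom gave 0.119. The zone 2 call held in all 10 fits that left out 1 library. Hk2 entered both tests only because it was high in the zone libraries, since its uninjured counts were below the count filter. The calls, these fits and the lack of overlap thus describe Hk2 and are not independent support for a rise.

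Pfkfb3 (chr2:11471433-11554077, minus strand) makes fructose 2,6-bisphosphate, the activator of phosphofructokinase. Its level was 30.0, 21.8, 16.4, 23.9 and 16.4 CPM in uninjured cortex IP and 64.1, 80.1, 56.2, 69.1 and 30.7 CPM in zone 1. All zone 1 libraries were above all uninjured ones, although replicate 5 only narrowly. It rose by 1.42 ± 0.37 (SE, adjusted p = 0.0263) on the log2 scale, a call that was lost with limma voom (adjusted p = 0.126) and without uninjured replicate 2, 3, 4 or 5 or zone 1 replicate 2, with adjusted p from 0.0564 to 0.106. In zone 2 the values were 21.5, 61.3, 22.0, 58.2 and 12.4 CPM, with 2 libraries high and 3 at or below the uninjured values, and the log2 difference was 0.73 ± 0.37 (SE, adjusted p = 0.371). Zones 3, 4 and 5 overlapped the uninjured range with log2 differences of 0.14 ± 0.30, 0.13 ± 0.26 and 0.32 ± 0.26.

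Aldoc (chr11:78322968-78327781, plus strand) encodes aldolase C, an enzyme of the middle of glycolysis long used as an astrocyte marker. Uninjured cortex IP libraries held 311, 401, 294, 619 and 452 CPM and zone 1 libraries 200.1, 152, 223, 253 and 344 CPM. Only zone 1 replicate 5 reached into the uninjured range. The fall in zone 1 was -0.87 ± 0.22 (SE, adjusted p = 0.0253) on the log2 scale, and it was lost with limma voom (adjusted p = 0.0585) and without uninjured replicate 4 or 5 or zone 1 replicate 1 or 2, with adjusted p from 0.0553 to 0.0901. In zone 2 the libraries held 403, 178, 326, 227 and 315 CPM and in zone 5 497, 369, 278, 239 and 343 CPM, both overlapping the uninjured range. Its log2 differences of -0.49 ± 0.19, -0.28 ± 0.15, -0.25 ± 0.15 and -0.32 ± 0.16 in zones 2 to 5 did not pass the test. Of the list of 12 astrocyte markers, 2 were called higher in zone 1 and none lower, with a median log2 fold change of 0.44. The part of cell type content in the Aldoc value was not tested.

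**Figure D1:**
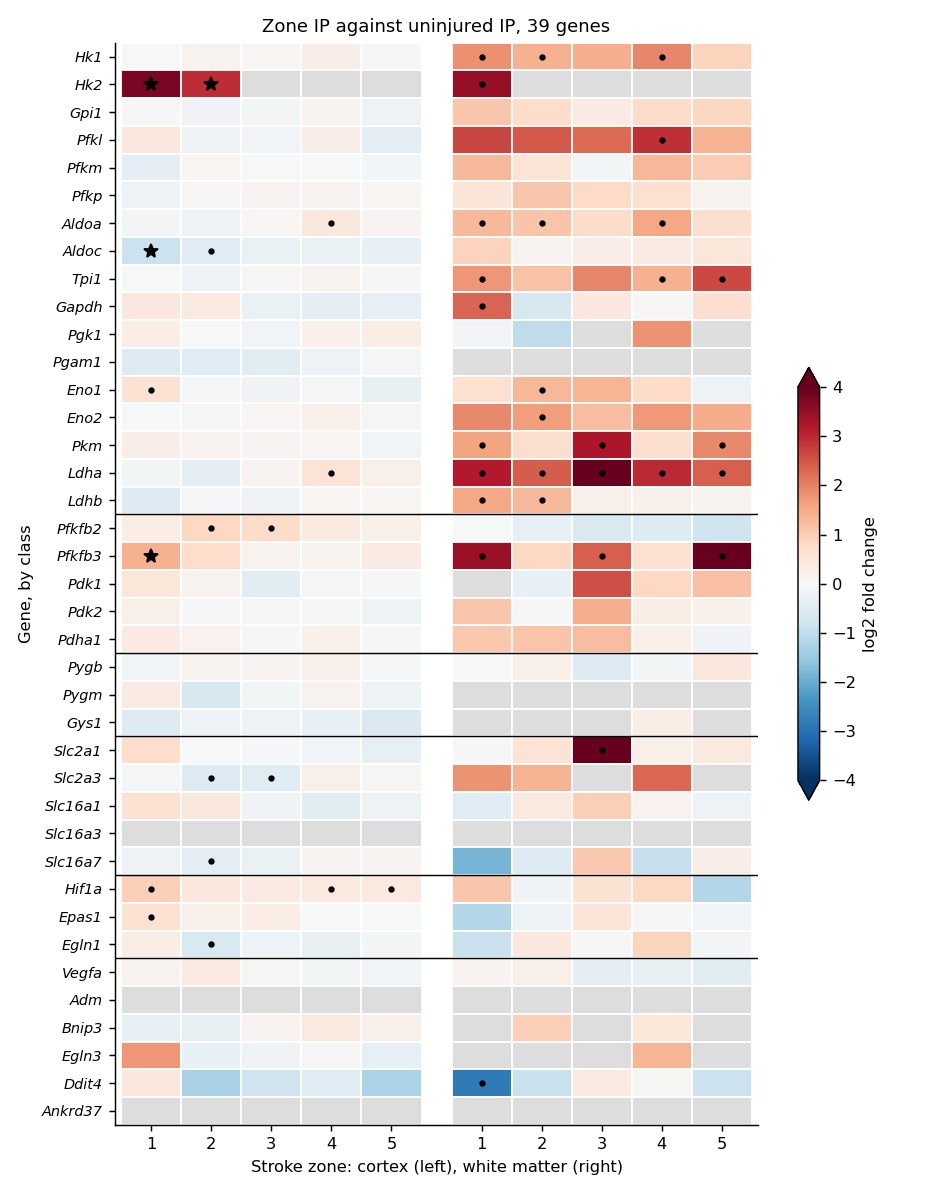
Log2 fold change of each member (rows, by class) in each stroke zone's IP libraries against the uninjured IP libraries of the same region (columns), colour-coded from blue for lower to red for higher. Stars mark an adjusted p under 0.05, dots an unadjusted p under 0.05, and grey cells were not tested. Stars fall on Hk2 in cortex zones 1 and 2 and on Pfkfb3 and Aldoc in cortex zone 1; the white matter columns hold many red cells and no star.

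The other glycolytic enzymes of cortex zone 1 did not pass the test. Of 17 glycolytic enzymes tested, 1 rose, 1 fell, 7 were above 0 and the class median was -0.01. Eno1, the enolase of glia and most tissues (chr4:150236721-150248879), had 112, 139, 129, 215 and 240.3 CPM in uninjured cortex IP and 346, 298, 273, 211 and 182 CPM in zone 1, with 3 zone 1 libraries above all uninjured ones and a log2 difference of 0.60 ± 0.23 (SE, adjusted p = 0.172). Its neuronal counterpart Eno2 differed by -0.01 ± 0.19. The phosphofructokinase subunits Pfkl, Pfkm and Pfkp differed by 0.43 ± 0.47, -0.40 ± 0.26 and -0.23 ± 0.29, and the lactate dehydrogenase subunits Ldha and Ldhb by -0.11 ± 0.28 and -0.51 ± 0.25. Hk1, Gpi1, Aldoa and Tpi1, which carry glucose from hexokinase to the triose phosphates, differed by -0.01 ± 0.25, 0.02 ± 0.22, -0.10 ± 0.24 and -0.00 ± 0.27. Gapdh, Pgk1, Pgam1 and Pkm, the steps from there to pyruvate, differed by 0.43 ± 0.39, 0.30 ± 0.59, -0.51 ± 0.66 and 0.28 ± 0.19. Apart from Hk2, every enzyme's difference was under 1 log2 unit.

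Among the other flux regulators, Pdk2, which curbs entry of pyruvate into the citric acid cycle, had 158, 169, 159, 226 and 209 CPM in uninjured cortex IP and 215, 237, 208, 249 and 210.5 CPM in zone 1. The ranges overlapped and the log2 difference was 0.23 ± 0.18 (SE, adjusted p = 0.597). Pfkfb2, Pdk1, a second kinase of pyruvate dehydrogenase, and Pdha1, a subunit of that enzyme, differed by 0.29 ± 0.51, 0.49 ± 0.53 and 0.34 ± 0.28. All 5 flux regulators were above 0 in zone 1, with a median of 0.34, and Pfkfb3 was the one called. Of the glycogen enzymes, Pygb, the brain glycogen phosphorylase, had 37.0, 53.0, 45.5, 63.5 and 57.7 CPM in uninjured cortex and 46.2, 39.8, 36.9, 49.6 and 71.1 CPM in zone 1, overlapping, with a difference of -0.13 ± 0.30. Pygm, the phosphorylase known from muscle and astrocytes, and Gys1, glycogen synthase, differed by 0.33 ± 0.56 and -0.53 ± 0.85.

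The glucose transporter Slc2a1 (GLUT1, of endothelium and astrocytes; chr4:119108711-119137983) had 28, 53.0, 37.3, 134 and 31.8 CPM in uninjured cortex IP, with replicate 4 well above the rest. Zone 1 libraries held 48.7, 109, 123, 95.5 and 109 CPM, with 4 libraries above the other uninjured values and the shallow one inside their range. The log2 difference of 0.75 ± 0.38 (SE, adjusted p = 0.351) did not pass the test. Slc2a3, the neuronal glucose transporter GLUT3, differed by -0.08 ± 0.34 in zone 1 and -0.51 ± 0.23 in zone 2. For the lactate transporters Slc16a1 (MCT1) and Slc16a7 (MCT2, known from neurons), the zone 1 differences were 0.61 ± 0.68 and -0.25 ± 0.30. Slc16a3, known as the lactate exporter of glycolytic cells, was too low to test in any zone, with 11 counts summed over the uninjured cortex IP libraries and 47 over zone 1, of which 32 came from 1 library.

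Hif1a (chr12:73901375-73947530), whose protein drives the transcriptional response to low oxygen, had 34.0, 47.3, 58.8, 47.5 and 37.3 CPM in uninjured cortex IP and 79.5, 125, 94.8, 64.6 and 91.8 CPM in zone 1. The groups did not overlap, and the log2 difference of 0.96 ± 0.28 (SE, adjusted p = 0.0562) stood outside the threshold. DESeq2 placed it inside, with an adjusted p of 0.0147. In all, 2 of 8 alternative fits called Hif1a. Of 10 edgeR fits without 1 library, 1 called it, with adjusted p up to 0.204. Zones 2 to 5 differed from uninjured by 0.43 ± 0.22, 0.37 ± 0.21, 0.40 ± 0.19 and 0.38 ± 0.18. Epas1, the second HIF alpha subunit and one known from endothelium and astrocytes, had 144, 64.4, 109, 151 and 114 CPM uninjured and 177, 162, 263, 161 and 173 CPM in zone 1, all zone 1 values being higher, with a difference of 0.62 ± 0.26 (SE, adjusted p = 0.217). Egln1, the main oxygen-sensing hydroxylase, differed by 0.28 ± 0.29 in zone 1 and -0.65 ± 0.22 (SE, adjusted p = 0.101) in zone 2.

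Vegfa, the angiogenic growth factor and the highest of the HIF targets, had 62.0, 61.5, 63.8, 42.5 and 74.6 CPM in uninjured cortex IP and 79.5, 83.4, 99.1, 24.2 and 59.5 CPM in zone 1. The zone 1 libraries spread to both sides of the uninjured ones, and the difference was 0.11 ± 0.34 (SE, adjusted p = 0.915). Egln3, a hydroxylase that HIF itself induces, read 23.1, 99.7, 2.33, 1.42 and 12.1 CPM in zone 1 against 3.44 to 14.4 CPM uninjured, so that 2 libraries were high and 2 low. The stress gene Ddit4 and the mitophagy gene Bnip3 differed by 0.43 ± 0.81 and -0.32 ± 0.52. Adm and Ankrd37 were too low to test in any zone, with 8 and 28 counts summed over uninjured cortex IP and 58 and 86 over zone 1. Of the 4 HIF targets tested in zone 1 none was called.

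Markers of other cell types moved strongly in the same libraries. In cortex zone 1, 14 of 14 microglial markers were called higher, with a summed CPM of 1592 to 2912 against 118 to 296 in uninjured cortex, and in zone 2 13 of 14, at 599 to 1056. Oligodendrocyte markers were called higher for 10 of 12 in zone 1, at 5352 to 9051 CPM against 1804 to 2548, and endothelial markers for 2 of 10, at 287 to 478 CPM against 107 to 265. The 12 neuron markers gave no call in zone 1 and ranged from 11237 to 17524 CPM. No marker of these 4 lists was at 0 in all libraries of a cortex group. Of 8 leukocyte markers, 3 had no count in zone 1 and the summed level was 18.8 to 65.5 CPM, against 0 to 5.68 CPM in uninjured cortex. In zone 3 the microglial markers summed to 217 to 452 CPM. The part of microglia in the Hk2, Pfkfb3 and Hif1a values was not tested.

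In cortex zone 2, Hk2 was the 1 member called of 36 tested (2.78%), against 3.64% of the 11713 genes tested (3.12% higher), and the member median was -0.05. Zone 3 gave no call among 35 members tested, against 0.0405% of all genes, and zones 4 and 5 gave none among 35 each, where 0% of all genes passed. At an unadjusted p under 0.05 there were 6 members in zone 2, 2 in zone 3, 3 in zone 4 and 1 in zone 5. Over all genes tested in zones 2 to 5, 1730 of 11713, 727 of 12356, 832 of 12140 and 694 of 12392 were under that limit. Neither DESeq2 nor limma voom called a member in zones 3 to 5. The members past that looser limit in the outer zones were Pfkfb2, an isoform of the fructose 2,6-bisphosphate enzyme, at 0.75 ± 0.26, and Slc2a3, at -0.49 ± 0.23, in zone 3. In zone 4 they were Ldha, at 0.54 ± 0.19, Aldoa, at 0.43 ± 0.18, and Hif1a, and in zone 5 Hif1a.

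**Figure D2:**
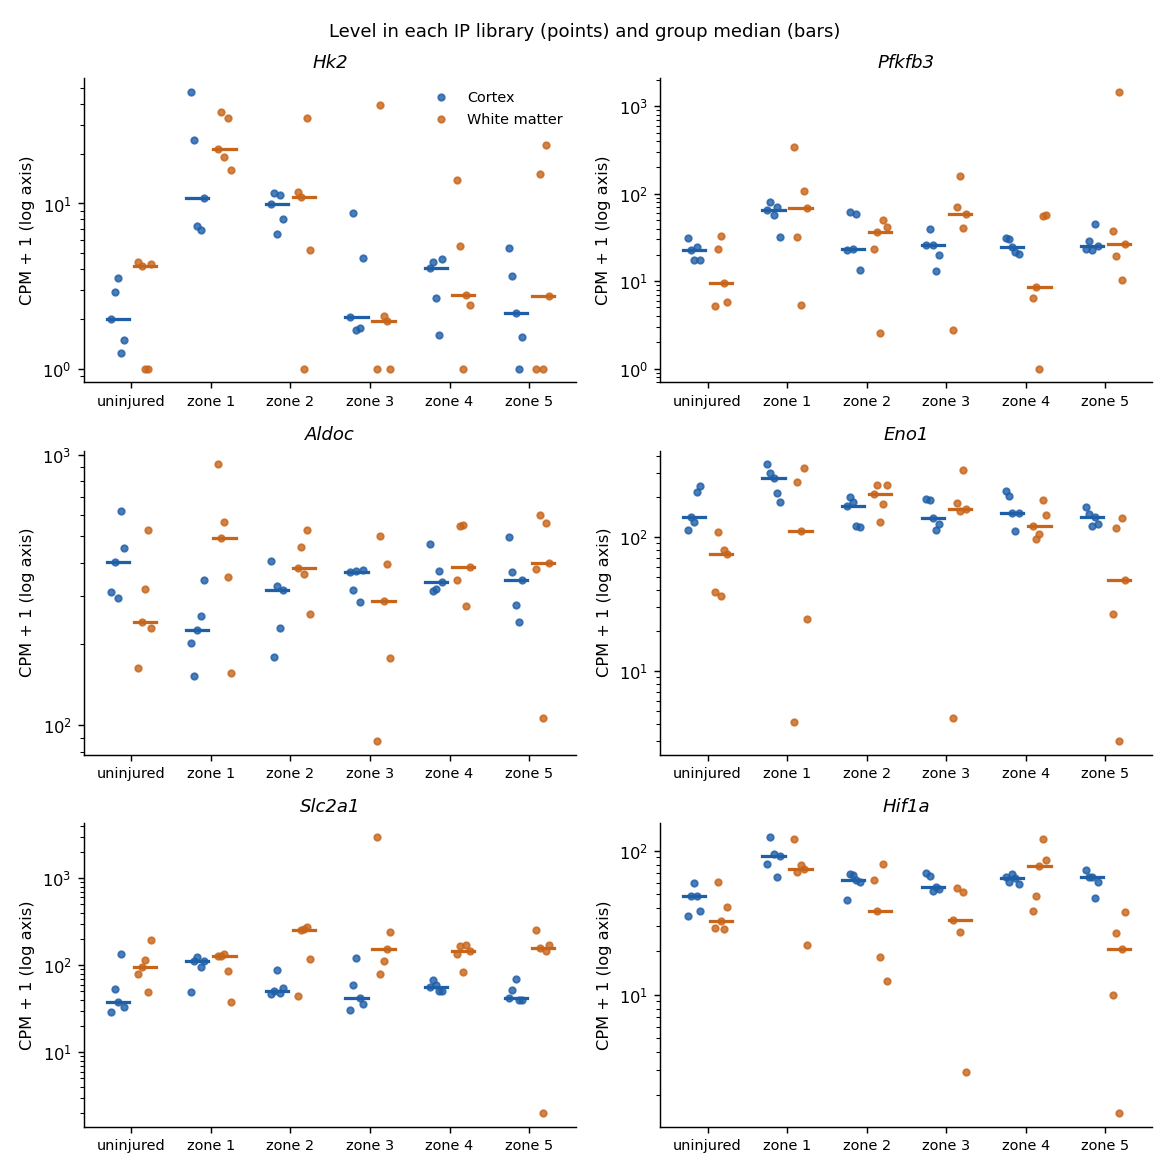
Level of 6 members in each IP library (points, CPM + 1 on a log axis) with the group median (bars), for uninjured tissue and zones 1 to 5 of cortex (blue) and white matter (orange). Cortex Hk2 and Hif1a points of zone 1 lie above all uninjured cortex points, and the white matter points spread more widely, with single libraries far from the rest for Pfkfb3 in zone 5 and Slc2a1 in zone 3.

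A comparison of cortex zone 1 with zone 5, which uses none of the uninjured libraries, gave 3 members higher in zone 1 and none lower out of 37 tested (8.11%), against 7.23% of the 13784 genes tested (6.01% higher). Eno1 had 167, 148, 120.3, 140.1 and 124 CPM in zone 5, below all 5 zone 1 values given above, and was higher in zone 1 by 0.89 ± 0.19 (SE, adjusted p = 0.00748) on the log2 scale. This call held in all 10 fits without 1 library and in all 8 alternative fits. Hk2 was higher by 3.22 ± 0.84 (SE, adjusted p = 0.0263), a call lost without the shallow zone 1 replicate 1 (adjusted p = 0.0691) or without zone 5 replicate 2, 3, 4 or 5 (up to 0.0829). Hk2 reached this test through its zone 1 libraries, as its zone 5 counts alone were too low. Slc2a1 had 41.6, 50.5, 67.6, 39.1 and 39.2 CPM in zone 5, where 2 libraries exceeded the shallow zone 1 library and all lay below the other 4. It was higher in zone 1 by 1.06 ± 0.28 (SE, adjusted p = 0.029), lost without zone 1 replicate 3 or zone 5 replicate 1, 2, 4 or 5 (adjusted p from 0.0588 to 0.107). Pfkfb3 and Epas1 followed at 1.10 ± 0.34 (SE, adjusted p = 0.0633) and 0.64 ± 0.21 (SE, adjusted p = 0.0837). Egln3 differed by 2.13 ± 0.85, but by 0.34 without zone 1 replicate 2, and Ddit4 by 1.64 ± 0.74, but by 0.30 without zone 1 replicate 4. Microglial markers were called higher in zone 1 for 14 of 14 and endothelial ones for 2 of 10 in this comparison too, and their part in it was not tested.

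White matter gave larger differences and no call. Of the members tested in zones 1 to 5 (30, 31, 28, 33 and 28), none passed edgeR's adjusted threshold, against 0.45%, 0.941%, 0%, 0.0666% and 0% of all genes tested. At an unadjusted p under 0.05 there were 10, 6, 4, 5 and 4 members. Over all genes tested, 1463 of 10438, 1472 of 10522, 1054 of 9220, 1148 of 10508 and 931 of 10195 were under that limit. DESeq2 called 2 in zone 1 (Hk2 and Ldha), 2 in zone 2 (Hk1 and Eno1), 1 in zone 4 (Hk1) and none in zones 3 and 5. By limma voom Ldha was called in zone 1, Eno2 in zone 2 and none in zones 3 to 5. The shares of all genes called by these methods are not given here, so these counts are no result about the members. The median log2 fold change over the tested members was 1.10, 0.55, 0.90, 0.64 and 0.41, beside 0.04, -0.02, 0.12, 0.00 and -0.12 over all genes tested. Of the glycolytic enzymes tested, 15 of 16, 13 of 15, 13 of 14, 15 of 15 and 13 of 14 were above 0. These 5 comparisons share their 5 uninjured libraries, so the repeated direction is not repeated evidence.

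Ldha was above its uninjured level by more than 2 log2 units in every zone, yet did not pass the test in any. The uninjured white matter IP libraries held 0.606, 0.632, 24.6, 12.5 and 1.10 CPM, with 3 libraries near 1 CPM. Zone 1 held 6.28, 41.0, 112, 184 and 85.9 CPM, zone 2 held 13.4, 126, 64.0, 20.1 and 32.9 CPM and zone 3 held 146, 84.2, 98.8, 71.0 and 9.89 CPM. Most zone libraries lay above the uninjured ones and each zone overlapped them. Zones 4 and 5 ranged over 8.33 to 224 and 7.04 to 71.1 CPM. On the log2 scale the differences were 3.17 ± 1.11, 2.43 ± 1.05, 4.72 ± 1.25, 2.98 ± 1.14 and 2.40 ± 1.10, with adjusted p from 0.199 to 0.507. Without zone 3 replicate 1 the zone 3 difference was 3.00, and without zone 4 replicate 4 that of zone 4 was 1.67. Fold changes and CPM are scaled differently in shallow libraries. TMM scaling over all white matter IP libraries gave zone 3 replicate 1, with 1718943 counts, an effective size of 385328. For zone 5 replicate 3, with 1987444 counts, it gave 618280.7. CPM is not scaled so, and the differences above can be larger than the listed CPM imply.

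Hk1 was even among the uninjured white matter libraries, at 18, 25.3, 19.6, 20.6 and 18.3 CPM. In zone 1 it read 3.14, 99.4, 133, 129 and 85.9 CPM, so that 4 libraries were far above and the shallow replicate 1 below, and in zone 2 73.4, 85.5, 54.9, 87.1 and 36.5 CPM, all above. Zone 3 split, at 12.2, 151, 9.66, 75.7 and 10.4 CPM, with 3 libraries below all uninjured ones and 2 above, and so did zone 5, at 9.90, 79.8, 0.503, 71.2 and 61.9 CPM, with 2 below and 3 above. In zone 4 all 5 lay above, at 57.1 to 174 CPM. The log2 differences were 1.84 ± 0.83 in zone 1, 1.42 ± 0.62 (SE, adjusted p = 0.298) in zone 2, 1.44 ± 0.93 in zone 3, 1.95 ± 0.63 (SE, adjusted p = 0.244) in zone 4 and 0.93 ± 0.94 in zone 5. Hk2 had 3.44, 3.16, 0, 0 and 3.29 CPM in uninjured white matter and 20.4, 35.0, 18.1, 32.1 and 14.8 CPM in zone 1, again with no overlap, and a difference of 3.48 ± 1.30 (SE, adjusted p = 0.224). DESeq2 called this one with an adjusted p of 0.00844, the only call among 8 alternative fits. None of 10 edgeR fits without 1 library called it, with adjusted p from 0.22 to 0.378. Here too Hk2 passed the count filter only through the zone 1 libraries, so the lack of overlap is not independent support. In zones 2 to 5 Hk2 was below the count filter, with 0 to 31.7, 0 to 38.5, 0 to 12.9 and 0 to 21.6 CPM. Aldoa differed by 1.31 ± 0.59, 1.13 ± 0.39 and 1.55 ± 0.45 in zones 1, 2 and 4, and Aldoc, with 921, 491, 562, 353 and 155 CPM in zone 1 against 162, 240.2, 319, 528 and 228 CPM uninjured, by 0.94 ± 0.61.

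Several white matter values rest on 1 shallow library. Pfkfb3 stood at 4.24, 22.1, 31.9, 8.44 and 4.75 CPM uninjured and 36.9, 18.3, 1451, 9.36 and 25.9 CPM in zone 5; its zone 5 difference of 6.09 ± 1.82 was 0.61 without replicate 3. Zone 1 held 346, 31.3, 4.33, 106 and 67.9 CPM of Pfkfb3, and that difference of 3.46 ± 1.05 was 1.50 without replicate 1. Slc2a1 read 78.2, 94.2, 115, 48.1 and 194 CPM uninjured and 2993, 78.7, 112, 152 and 242 CPM in zone 3, where the difference of 4.97 ± 1.43 was 0.73 without replicate 1. In zones 1, 2, 4 and 5 Slc2a1 differed from uninjured by 0.01 ± 0.66, 0.55 ± 0.47, 0.22 ± 0.46 and 0.39 ± 0.83. Gapdh in zone 1 differed by 2.34 ± 0.98 and by 0.01 without replicate 1, and Pkm in zone 3 by 3.28 ± 1.03 and by 1.02 without replicate 1. The Pkm difference in zone 5, 1.94 ± 0.88, was 0.37 without replicate 3, and that in zone 1, 1.62 ± 0.60, was 0.77 without replicate 1.

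The HIF genes of white matter showed no common direction. Epas1 had 252, 367, 304, 189 and 135 CPM uninjured and 41.6, 68.4, 175, 197 and 154 CPM in zone 1, with 2 zone 1 libraries below the uninjured range and 3 inside it, and a difference of -1.16 ± 0.57 (SE, adjusted p = 0.366). Hif1a differed by 1.09 ± 0.77 in zone 1, -0.18 ± 0.69 in zone 2 and -1.17 ± 0.93 in zone 5. Vegfa read 74.8, 35.4, 31.9, 24.6 and 25.2 CPM uninjured and 3.93, 37.0, 12.6, 64.6 and 122 CPM in zone 1, with a difference of 0.10 ± 0.88. Ddit4 was -2.82 ± 1.19 in zone 1, where 3 of the 5 libraries were under 1 CPM. Pdk2 libraries of zone 1 held 447, 442, 45.1, 239 and 390.2 CPM against 108, 186, 128, 242 and 95.8 CPM uninjured, and Pygb 92.7, 110.2, 31.4, 97.1 and 35.0 against 78.8, 89.8, 36.2, 68.7 and 95.4 CPM; both overlapped, with differences of 1.12 ± 0.65 and -0.01 ± 0.70. Adm had 1 count in all of white matter zone 1 and Ankrd37 none.

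Means over the members of a class, on the log2(CPM + 1) scale, describe the classes, with no test. Glycolytic enzymes averaged 6.44 ± 0.17 (SD, n = 5) in uninjured cortex IP and 6.58 ± 0.32, 6.47 ± 0.09, 6.43 ± 0.25, 6.64 ± 0.23 and 6.45 ± 0.27 in cortex zones 1 to 5. Every zone's libraries overlapped the uninjured range of 6.22 to 6.64. In white matter the same mean was 4.34 ± 0.23 uninjured and 5.77 ± 0.82, 5.65 ± 0.39, 4.68 ± 1.20, 5.68 ± 0.39 and 4.98 ± 1.05 in zones 1 to 5. The zone 2 and zone 4 libraries all lay above the uninjured ones, while zones 1, 3 and 5 overlapped them. Transporters averaged 4.49 ± 0.32 uninjured and 4.58 ± 0.76 in zone 1 of cortex, and 3.69 ± 0.90 and 3.62 ± 1.81 in white matter. As zone minus uninjured, their differences in zones 1 to 5 were 0.09, -0.07, -0.28, -0.02 and -0.03 in cortex and -0.07, 0.87, 0.14, 0.77 and -0.12 in white matter. The HIF targets averaged 3.16 ± 0.48 and 3.33 ± 0.71 in cortex and 2.44 ± 0.63 and 1.70 ± 0.79 in white matter, uninjured and zone 1. Their differences were 0.17, -0.32, -0.30, 0.16 and -0.04 in cortex and -0.74, 0.20, -0.57, 0.23 and -0.54 in white matter. The libraries of both classes overlapped the uninjured ones in every zone of both regions. The 3 HIF regulators were the class that stood apart in cortex, at 5.91 to 6.48 in uninjured libraries and 6.71 to 7.08 in zone 1, with 6.17 ± 0.26 in zone 2.

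**Figure D3:**
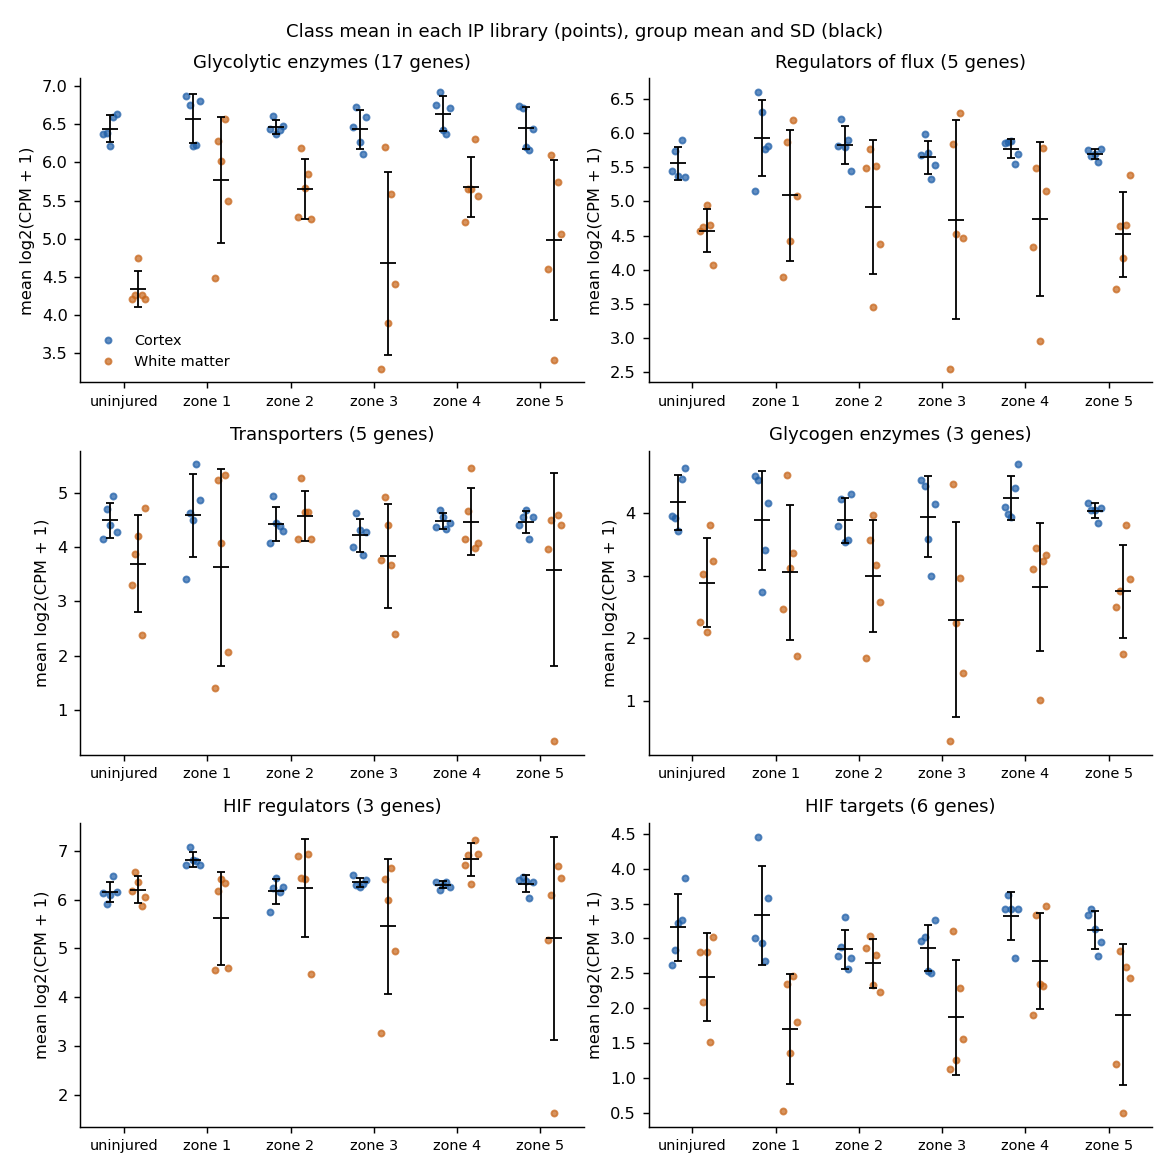
Mean log2(CPM + 1) over the members of each class in each IP library (points) with the group mean and SD (black), for uninjured tissue and zones 1 to 5 of cortex (blue) and white matter (orange). The cortex HIF regulators of zone 1 lie above all uninjured cortex libraries, and the white matter glycolytic means of zones 2 and 4 lie above the uninjured white matter libraries.

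Of the remaining members in white matter, Tpi1 differed by 1.78 ± 0.81 in zone 1 and 2.65 ± 0.89 in zone 5, Eno2 by 1.93 ± 0.96 and 1.48 ± 0.96, and Pfkl by 2.68 ± 1.30 and 1.38 ± 1.21. Without the shallow zone 5 replicate 3 the Tpi1 difference in zone 5 was 1.55. Eno1 had 37.6, 107, 35.0, 78.2 and 73.1 CPM uninjured and 209, 242, 128, 174 and 242 CPM in zone 2, a difference of 1.32 ± 0.45 (SE, adjusted p = 0.159). Every zone 2 library lay above every uninjured one. Pfkfb2 differed by -0.01 ± 0.93 in zone 1 and -0.81 ± 1.01 in zone 5, neither beyond its SE. The lactate transporters Slc16a1 and Slc16a7 differed by -0.49 ± 1.13 and -1.87 ± 1.05 in zone 1, and Slc2a3 by 1.81 ± 1.29. Slc16a3 had 6 counts summed over uninjured white matter IP and 74, 110, 3, 171 and 0 over zones 1 to 5. Pgam1, Pygm, Slc16a3, Adm and Ankrd37 were below the count filter in every white matter zone. Between white matter zones 1 and 5 none of 30 members passed, against 0.369% of all genes, and DESeq2 and limma voom called none. No member had an unadjusted p under 0.05, against 1032 of 10017 genes.

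Neuron marker levels were also higher in most stroke libraries of white matter. The 12 neuron markers summed to 756 to 2035 CPM in uninjured white matter IP and to 547 to 14464, 2342 to 7987, 1018 to 8330, 2999 to 15009 and 1719 to 7119 CPM in zones 1 to 5. edgeR called 5 of the 12 higher in zone 2, 1 in zone 4 and none in the other zones, with medians of 2.29, 1.87, 2.27, 2.00 and 2.16 on the log2 scale in zones 1 to 5. Neuron sums and glycolytic means of single libraries are given here side by side. Among the uninjured libraries replicate 3 had the highest sum, 2035 CPM, and the highest mean, 4.75. In zone 1 replicate 1 had the lowest sum, 547 CPM, and the lowest mean, 4.48. Replicate 3 had the highest sum, 14464 CPM, with a mean of 6.02. Replicates 4 and 2 had means of 6.57 and 6.28 at 5822 and 7333 CPM. In zone 2 the highest sum, 7987 CPM in replicate 2, came with the highest mean, 6.19. The lowest sum there, 2342 CPM in replicate 4, came with a mean of 5.85. In zone 4 replicate 3 had 15009 CPM and a mean of 5.65, and replicate 4 had 5389 CPM and 6.30. Replicate 3 of zone 1 and of zone 4 had oligodendrocyte marker sums of 7689 and 13065 CPM, against 30805 to 52956 CPM in uninjured white matter. In zone 3 the highest sum, 8330 CPM in replicate 2, came with the highest mean, 6.20, while the shallow replicate 1 had 4794 CPM and 3.29. In zone 5 the highest sum, 7119 CPM in the shallow replicate 3, came with the lowest mean, 3.41. Replicate 2 of zone 5 had 6007 CPM and the highest mean, 6.10. Microglial markers summed to 1056 to 3741 CPM in zone 1 against 230 to 399 uninjured, with 4 of 14 called higher. The part of any of these cell types in the glycolytic values was not tested.

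**Figure D4:**
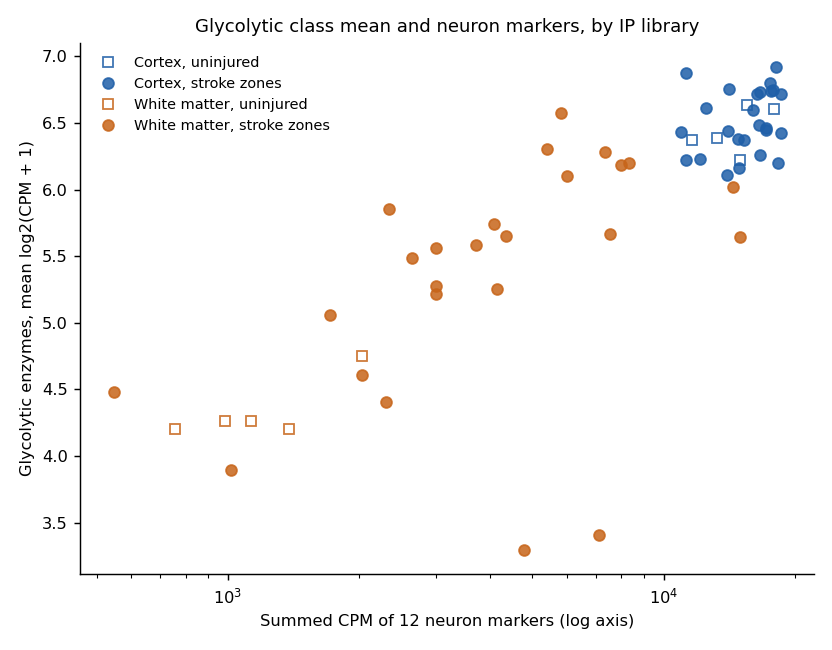
Mean log2(CPM + 1) of the 17 glycolytic enzymes (vertical axis) against the summed CPM of 12 neuron markers (horizontal log axis) in each IP library of cortex (blue) and white matter (orange), open squares uninjured and filled circles stroke zones. The uninjured white matter squares sit at 756 to 2035 CPM and 4.20 to 4.75. The cortex points sit to the right, above 10000 CPM, as do replicate 3 of white matter zone 1 and replicate 3 of white matter zone 4.

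Whether the zone response differed between cortex and white matter was tested directly as an interaction. No member passed in zone 1 (0 of 36, against 1.88% of 14601 genes) or zone 2 (0 of 36, against 2.75% of 13673 genes) by edgeR. At an unadjusted p under 0.05 there were 10 and 8 members, against 2534 and 2327 of all genes tested. The nearest in zone 1 were Ldha, at -3.25 ± 1.07 (SE, adjusted p = 0.103), and Epas1, at 1.79 ± 0.60 (SE, adjusted p = 0.107), both as cortex response minus white matter response on the log2 scale. In zone 2 they were Aldoa, at -1.39 ± 0.40 (SE, adjusted p = 0.0512), and Hk1, at -1.31 ± 0.43 (SE, adjusted p = 0.0941). DESeq2 called 4 members in zone 1 (Hk1, Tpi1, Ldha and Ldhb) and 3 in zone 2 (Hk1, Aldoa and Ldha), all with the lower response in cortex, and limma voom called 1 (Ldha) and 4 (Aldoa, Eno1, Eno2 and Ldha). The shares of all genes called by these methods are not given here, so whether the members exceed them cannot be told.

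The regions already differed without injury, and this comparison held the most member calls of those between IP groups. In uninjured IP, 11 members were higher in cortex and 3 lower out of 35 tested (40.0%), against 27.5% of the 11815 genes tested (12% higher and 15.5% lower). The split was 13 and 1 with the DESeq2 size factors, under which the median over all genes moved from -0.23 to -0.08, and 18 and 1 with limma voom. The shares of all genes called under these alternatives are not given here. Of 16 glycolytic enzymes tested 10 were higher in cortex. Tpi1 held 163, 158, 121, 240.1 and 274 CPM in cortex and 19.6, 22.1, 32.7, 9.91 and 16.8 CPM in white matter, with no overlap, a difference of 2.74 ± 0.36 (SE, adjusted p = 3.85e-05). Hk1, with cortex values of 119.9, 96.6, 139, 128 and 182 CPM against the white matter values given above, was higher by 2.19 ± 0.33 (SE, adjusted p = 0.000153). Aldoa, Pkm and Pfkm were higher by 1.43 ± 0.27, 1.07 ± 0.22 and 2.27 ± 0.49 (adjusted p = 0.00108, 0.00218 and 0.00254). Both lactate dehydrogenase subunits were higher, Ldha by 3.03 ± 0.85 and Ldhb by 1.34 ± 0.38, as was the neuronal pair Eno2, by 2.93 ± 0.75, and Slc2a3, by 3.04 ± 0.73 (SE, adjusted p = 0.00537). The Eno2 difference was 4.82 without white matter uninjured replicate 3, and its call was lost with no count filter (adjusted p = 0.0809), while DESeq2 gave it no adjusted p.

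Aldoc, the aldolase of astrocytes, showed a difference between the regions of only -0.06 ± 0.31 after TMM scaling of the libraries. Its CPM per kb, which is not so scaled, averaged 127 in cortex and 90.5 in white matter. For Pygb the same averages were 10.7 and 15.3, and for Slc2a1 16.2 and 30.2. The size of these differences thus depends on the scaling. Lower in cortex were Epas1, at -1.59 ± 0.32 (SE, adjusted p = 0.00159), Slc2a1, at -1.39 ± 0.47 (SE, adjusted p = 0.0384), and Pygb, at -1.06 ± 0.36 (SE, adjusted p = 0.0382). The Epas1 call held in all 10 fits without 1 library. Those of Slc2a1 and Pygb held in 3 each (highest adjusted p 0.119 and 0.106) and were lost with the DESeq2 size factors (0.058 and 0.0713), and those of Pfkp and Pfkl held in 3 and 7. Cell type markers differed in the same comparison: 11 of 12 neuron markers were higher in cortex, with a median of 3.20, 11 of 11 oligodendrocyte markers were lower, with a median of -5.0, and 4 of 12 astrocyte markers were lower. The part of these cell types in the member values was not tested.

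**Figure D5:**
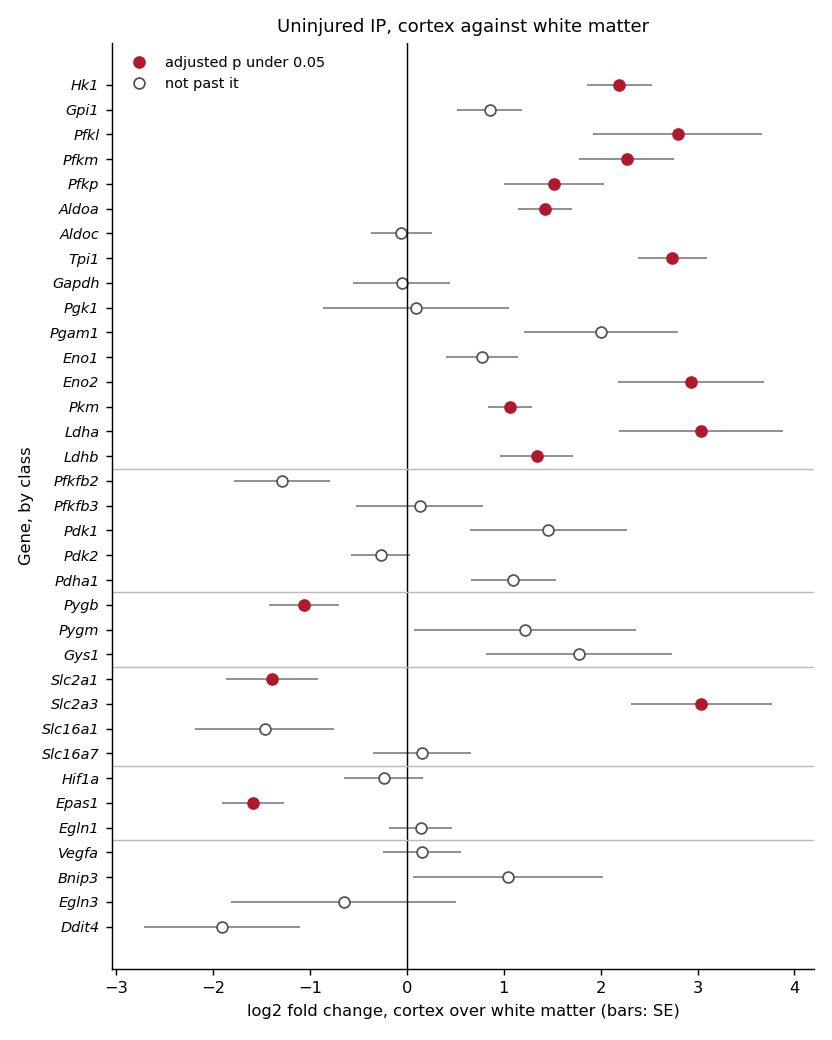
Log2 fold change of each tested member in uninjured IP, cortex over white matter, with its SE (bars); filled red points passed an adjusted p of 0.05. Red points lie right of 0 for 10 glycolytic enzymes and Slc2a3 and left of 0 for Pygb, Slc2a1 and Epas1.

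IP against input shows which members the pull-down favoured. In uninjured cortex 8 members were higher and 2 lower in IP of 34 tested (29.41%), against 25.3% of all genes (12% higher and 13.4% lower), and in the cortex stroke libraries of zones 1 to 3, with 3 IP and 3 input libraries, 7 were higher and 1 lower of 32 (25.0%), against 28.5% (13.6% higher and 14.9% lower). Eno2 was higher in both, by 1.67 ± 0.29 (SE, adjusted p = 0.000574) and 2.23 ± 0.21 (SE, adjusted p = 4.58e-05) on the log2 scale. Gpi1, Pfkm, Tpi1 and Pkm were higher by 0.85 ± 0.22, 1.10 ± 0.29, 1.28 ± 0.30 and 1.17 ± 0.24 in uninjured cortex and by 1.09 ± 0.21, 1.30 ± 0.32, 1.03 ± 0.21 and 1.04 ± 0.19 after stroke. Egln1, Eno1 and Pdk2 passed in uninjured cortex alone, and Hk1 and Pfkl after stroke alone, a difference that was not tested. Lower in IP were Pfkfb3, at -1.28 ± 0.37 (SE, adjusted p = 0.0179), and Hif1a, at -1.08 ± 0.33 (SE, adjusted p = 0.0236), in uninjured cortex, and Slc16a7, at -0.92 ± 0.21 (SE, adjusted p = 0.00653), after stroke.  The Hif1a call was lost in 5 and the Pdk2 call in 5 of the 10 fits without 1 library, with adjusted p up to 0.0795 and 0.0834, and the Pfkfb3 call in 1 (0.0511). After stroke, the Pfkl call held in 3, the Slc16a7 call in 4 and the Pfkm call in 5 of the 6 such fits, with adjusted p up to 0.0899, 0.0568 and 0.0833, and Slc16a7 was also lost with all groups in 1 fit (0.0871). Of the marker lists in uninjured cortex, 2 of 12 astrocyte and 4 of 12 neuron markers were called higher in IP.

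In uninjured white matter Epas1 was the 1 member called of 31 tested (3.23%), higher in IP by 1.47 ± 0.32 (SE, adjusted p = 0.0347), against 0.603% of all genes (0.527% higher), and the call held in 4 of the 10 fits without 1 library. The white matter stroke libraries gave 0 of 32, where 0% of all genes passed, and DESeq2 and limma voom called none. No member had an unadjusted p under 0.05, against 777 of 11689 genes.

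A wider list of 82 other genes of the same pathways was read in the same tests. In cortex zone 1, 1 of the 59 tested passed, against 5.3% of all genes tested. It was Hmox1, the heme oxygenase induced by oxidative stress and hypoxia. Hmox1 had 0, 1.89, 2.53, 1.48 and 0 CPM in uninjured cortex IP and 30.8, 10.9, 9.31, 4.99 and 16.1 CPM in zone 1. The groups did not overlap and it rose by 3.37 ± 0.88 (SE, adjusted p = 0.0275). Hmox1 passed the count filter only through the zone libraries, where it was high, so the lack of overlap is not independent support. In zone 2 Hmox1 was again the 1 called of 57, against 3.64% of all genes. It stood there at 29.8, 11.9, 6.89, 21.8 and 6.61 CPM, a rise of 3.64 ± 0.65 (SE, adjusted p = 0.00044). None passed in cortex zones 3, 4 and 5 (56, 56 and 55 tested), against 0.0405%, 0% and 0% of all genes. None passed in any white matter zone either (44, 46, 40, 51 and 48 tested), against 0.45%, 0.941%, 0%, 0.0666% and 0%. Between cortex zones 1 and 5, 3 of 62 passed, against 7.23% of all genes. Among them was Bsg, the chaperone that carries MCT1 and MCT4 to the membrane. Bsg was higher in zone 1 by 0.78 ± 0.18 (SE, adjusted p = 0.0126), with 326, 336, 225, 348 and 323 CPM there and 184, 194, 177, 123 and 225 CPM in zone 5. Zone 1 replicate 3 and zone 5 replicate 5 were level, and all other zone 1 values were higher. The other 2 were Hmox1 and the histone demethylase Kdm4b, by 1.67 ± 0.49.

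Between the uninjured regions, 9 of 56 such genes were higher in cortex and 12 lower, against 12% and 15.5% of all genes tested. The lowest adjusted p belonged to Ndrg1, a hypoxia-responsive gene also known for its role in myelin, with 29.0, 16.1, 32.2, 46.7 and 26.4 CPM in cortex and 351, 556, 516, 398 and 568 CPM in white matter, a difference of -4.47 ± 0.32 (SE, adjusted p = 7.16e-08). Ndrg1 was also the 1 of 62 that passed the interaction in zone 1, at 2.80 ± 0.66 (SE, adjusted p = 0.024), against 1.88% of all genes. It read 33.0, 236, 153, 166 and 200.4 CPM in white matter zone 1 and 164, 32.9, 70.8, 37.8 and 24.9 CPM in cortex zone 1. Oligodendrocyte markers summed to 7689 to 34763 CPM in white matter zone 1 and 30805 to 52956 CPM uninjured; their part in this value was not tested. In IP against input, Bsg was higher by 2.76 ± 0.31 (SE, adjusted p = 2.01e-05) in uninjured cortex and by 3.21 ± 0.31 after stroke. In uninjured cortex 2 were higher and 4 lower of 54 tested, against 12% and 13.4% of all genes. After stroke 5 were higher and 4 lower of 51, against 13.6% and 14.9%.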

How the data were processed

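The authors deposited one table of raw read counts per Ensembl gene for 82 paired-end libraries, with the build GRCm38 (mm10) named in the submitters' processing notes. The sources used here name no aligner, counter, annotation or strand setting. Per the labels' protocols, tissue was fixed by perfusion, frozen, sectioned and laser captured, and RNA was amplified before library preparation, so counts include amplification error. In column names L was read as white matter, M as cortex, S as uninjured, b as input and ip as IP, matched to the sample titles.

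The genes mt-Rnr1, mt-Rnr2, Gm42418, CT010467.1, Gm23935 and Lars2 were set aside, which left 389889 to 5708700 counts a library (median 2487444.5). CPM was computed over the rest, with no intervals for single libraries. It carries no TMM scaling, which the fits use, so CPM and fold changes can differ. Symbols, exon lengths and positions came from GENCODE for 48349 of 48795 IDs, and promoters from RefSeq on GRCm38.p6. Groups came from the labels, and no pair of replicates was alike within sampling noise (152 pairs, lowest chi-square per degree of freedom 3.159). In no comparison did every same-numbered pair of libraries correlate above 0.1, and the libraries were treated as unpaired. This does not exclude animals shared between zones.

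Each comparison was fitted with its own groups over all genes by edgeR 4.0.16 in R 4.3.3 (robust quasi-likelihood F-test after TMM scaling; filterByExpr kept genes with 10 or more counts in enough libraries and 15 in all). All adjusted p-values are Benjamini-Hochberg over every gene tested, with a threshold of 0.05, and SE was taken as the log2 fold change over the root of its F statistic. The steps were tested on simulated data. Class means are means of log2(CPM + 1) and have no test. Alternatives were DESeq2 1.42.0, limma voom (3.58.1), DESeq2 size factors in edgeR, no count filter, all groups in 1 fit, all genes kept, a replicate block, each library left out, and the 5 shallow libraries left out. For class means they were other pseudocounts, TMM-scaled CPM and members above 5 CPM, and leaving out each library, which was chosen after seeing the data. Shares of all genes called are given for the main edgeR fits only, not for the alternatives. Figures were drawn with matplotlib 3.10.9.

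The members and lists were chosen with earlier results of these data known. Values in every library are given for members called in at least 1 zone and for the highest member of each class; of the wider pathway list, up to 4 genes with the lowest adjusted p in a comparison are named. Other members whose libraries are given (such as Eno1, Ldha, Hk1 and Tpi1) were chosen after their values were seen.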

Additional observations from a re-analysis of the deposited data

Results flagged for a closer look

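Of 144 sets of 5 libraries examined on the log2(CPM + 1) scale, 18 held 1 library whose gap to the others was over 0.71 of the whole range (Dixon's 95% limit), where chance gives about 1 in 20.

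The shallow white matter zone 5 replicate 3 accounts for 6 of them: Pfkfb3 was highest there at 10.5 (group median 4.75), while Aldoc at 6.73 (8.63), Pdk2 at 5.14 (7.76), Slc2a1 at 1.00 (7.30), Epas1 at 3.71 (8.28) and the transporter mean at 0.44 (4.40) were lowest. In other white matter groups, Hk2 was highest at 5.30 in zone 3 replicate 2 (0.96), Pfkfb3 lowest at 1.34 in zone 2 replicate 3 (5.18) and Pdk2 lowest at 5.53 in zone 1 replicate 3 (8.61). Pygb was lowest at 3.04 in zone 4 replicate 3 (6.53), and the mean of the HIF regulators lowest at 4.48 in zone 2 replicate 5 (6.44).

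In cortex zone 1, Slc2a1 was lowest at 5.64 in the shallow replicate 1 (6.79), Epas1 highest at 8.04 in replicate 3 (7.44) and the mean of the HIF regulators highest at 7.08 in replicate 2 (6.79). Slc2a1 was highest at 6.48 in cortex zone 2 replicate 3 (5.67). Pdk2 at 7.24 (7.67) and the mean of the HIF targets at 2.72 (3.43) were lowest in cortex zone 4 replicate 4, and the mean of the HIF regulators at 6.03 in cortex zone 5 replicate 4 (6.38).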

How the results depend on the processing

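Counts of members called by edgeR moved past 1.5 times as follows, and the cause was not tested. No share of all genes called stands beside the alternative counts, so they are no result about the members. In cortex zone 1 (3 called) limma voom gave 0 and all groups in 1 fit 6. Between cortex zones 1 and 5 (3) DESeq2 gave 5 and all groups 12. In white matter zones 1 to 5 (0 each), DESeq2 gave 2 in zone 1, 2 in zone 2 and 1 in zone 4, limma voom 1 in zone 1 and 1 in zone 2, no count filter 1 in zone 1, 3 in zone 3 and 2 in zone 5, and all groups 1 in zone 3 and 1 in zone 5. Between white matter zones 1 and 5 (0) no filter gave 1. For uninjured cortex IP against input (10) all groups gave 16, and for white matter (1) DESeq2 gave 2 and all groups 0. For the interaction in zone 1 (0) no filter gave 1, DESeq2 4, limma voom 1 and leaving out the shallow libraries 3, and in zone 2 (0) the DESeq2 size factors gave 1, no filter 1, DESeq2 3 and limma voom 4. Among the uninjured regions, Pkm and Ldhb were not called with all groups in 1 fit nor Eno2 with no filter (adjusted p = 0.0809), and Pygb and Slc2a1 were called in 2 and 4 of 7 alternatives.

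Leaving out 1 library gave 0 to 4 calls in cortex zone 1, 1 in zone 2, 0 to 1 in zone 4, 0 to 1 in white matter zones 1 and 2, 1 to 6 between cortex zones 1 and 5, 0 to 1 between white matter zones 1 and 5, 10 to 15 between the uninjured regions, 7 to 15 and 6 to 11 for cortex IP against input, 0 to 1 for uninjured white matter IP against input, and 0 to 3 in each interaction. In no comparison did every same-numbered pair of libraries correlate above 0.1 (correlations from -0.207 to 0.196), which does not exclude shared animals. Between cortex zones 1 and 5, 3 of 5 libraries correlated best with their own number. With a replicate block the count stayed at 3 in cortex zone 1 and was 13 in place of 14 between the uninjured regions. Between cortex zones 3 and 4, and 4 and 5, which were not compared, every same-numbered pair correlated above 0.1 (0.123 to 0.231 and 0.113 to 0.323).

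The comparisons that hold no shallow library have no value without them. With the DESeq2 size factors the median over all genes moved from 0.04 to 0.19 in white matter zone 1, from 0.12 to 0.26 in zone 3 and from 0.08 to -0.17 in the interaction of zone 1. Every class mean difference moved by less than 1 SD between replicates under each alternative tried. That SD is wide in white matter, and leaving out 1 library changed the sign of some differences. Transporters ran from -0.50 to 0.48 in white matter zone 1 and from -0.445 to 0.669 in zone 5. Glycolytic enzymes ran from -0.04 to 0.68 in white matter zone 3, and HIF targets from -0.11 to 0.35 in cortex zone 1. Of the 5 shallow libraries, cortex zone 1 replicate 1 (389889 counts, where 1 count is over 2 CPM) and white matter zone 1 replicate 5 (943091) hold under 1000000 counts, and the other 3, all white matter, under 10000 genes.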
